A study of Mus musculus with 6 samples.

Results

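The comparison described here set skin from a mouse given bleomycin and EHP-101 against skin from a control mouse. It rested on 2 of the 6 libraries of the series, 1 library in each group, which were chosen by their group label alone. The remaining libraries were 1 of bleomycin without a drug and 3 of bleomycin with AJA (ajulemic acid), and they are given here only where they place the 2 libraries of the comparison. All animals were female BALB/c mice of 6 to 8 weeks, the tissue was frozen skin, and the labels give neither the doses and times of bleomycin and EHP-101 nor a vehicle for the control. Whether each library is its own animal is not stated, and a p-value here reflects the spread among the samples alone, which may be technical.

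Bleomycin is an antitumour glycopeptide that cuts DNA, and repeated injection of it into mouse skin produces inflammation, thickening of the dermis and loss of the fat layer below it, the usual animal model of scleroderma. EHP-101 is an oral formulation of VCE-004.8, a derivative of cannabidiol that acts on the PPARγ and CB2 receptors and on the hypoxia pathway. Dermal fibrosis is driven by fibroblasts and myofibroblasts that lay down collagen under signals such as TGF-β, while dermal adipocytes shrink or lose their identity. Mouse skin also contains a sheet of striated muscle, the panniculus carnosus, hair follicles that pass through growth and rest, sebaceous glands, vessels, nerves and resident immune cells. The comparison asks which transcripts still differed from control skin in an animal that received EHP-101 along with bleomycin.

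The libraries held 14291592 to 19837682 counts in genes, with 15728362 in control and 15483701 in bleomycin with EHP-101, and 17377 genes passed the filter on low counts. Values per library are CPM, counts scaled to the library total with edgeR's TMM factors. The skin markers were present in both libraries of the comparison: Krt5, a keratin of basal keratinocytes, stood at 1443 against 1884 CPM, Krt10, a keratin of suprabasal cells, at 2024 against 1944 CPM, and Col1a1, the main dermal collagen, at 1663 against 902 CPM (control first). The control library stood apart by transcripts of other tissues. Sftpc, a lung surfactant protein, had 266 counts in control and 3 in bleomycin with EHP-101. For Sftpa1, a further surfactant protein, the counts were 122 and 0. Of 12 lung epithelium genes, a list drawn up after values were seen, 8 were at least 2-fold lower with EHP-101, beside 4.58% of all tested genes, and 1 was higher. The list median of -1.87 became 0.062 under a stricter filter on low counts, which asks for 30 counts in both libraries or a mean log2 CPM of 2. That filter drops members for being low with EHP-101, such as Cxcl15 (104 and 0 counts, mean log2 CPM 0.37). The change of sign therefore cannot show whether the lung difference is stable. Ucp1, the uncoupling protein of brown fat, had 1448 and 4. Its level was 95.1 CPM in control, 0.0641 in bleomycin and 0.0682, 17.1 and 0.0498 in those given ajulemic acid. Transcripts made by the liver were present in both libraries: Alb, serum albumin, stood at 678 CPM in control, 477 in bleomycin, 454 in bleomycin with EHP-101 and 5.59, 12.6 and 1.74 in those given ajulemic acid. Counts on the mitochondrial chromosome were 27.6% of the total in control and 18.99% with EHP-101. With 1 control library, the effect of the treatment and the particulars of that library cannot be told apart, and no value against control could be computed without it.

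No gene passed an adjusted p of 0.05 in edgeR's quasi-likelihood test of bleomycin with EHP-101 against control, and the smallest adjusted p was 0.414. At an unadjusted p under 0.05 the same test counted 508 genes higher (2.92% of those tested) and 298 lower (1.71%). DESeq2 called 94 genes higher (0.586%) and 28 lower (0.175%) of the 16029 it gave an adjusted p. With limma there were 0 calls in either direction. Without ajulemic acid library 1 edgeR called no gene, and without library 2 it called 7 higher and 2 lower. Without library 3 it called 72 higher and 19 lower. The spread in every fit came from the ajulemic acid libraries, 3 of them or the 2 left where one was omitted, which the lone libraries were assumed to resemble. Fold changes below are therefore descriptions of 1 library against 1, given on the log2 scale as treated minus control. The standard error (SE) beside them is the size of the log2 fold change divided by the square root of edgeR's F statistic. It thus rests on the spread of the ajulemic acid libraries, not on replicates of the 2 groups compared. Adjusted p-values are edgeR's over all 17377 genes. Where a gene is given as a CPM value against another, the first is control and the second bleomycin with EHP-101, and the bracket after it holds the log2 fold change ± SE. A gene is counted as higher or lower here when it differed by at least 2-fold: this held for 948 genes higher (5.46%) and 795 lower (4.58%). The higher share of these genes was 54.4% and became 65.4% when libraries were scaled by their totals alone, a change that moved the median of all genes from 0.00055 to 0.13.

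**Figure D1:**
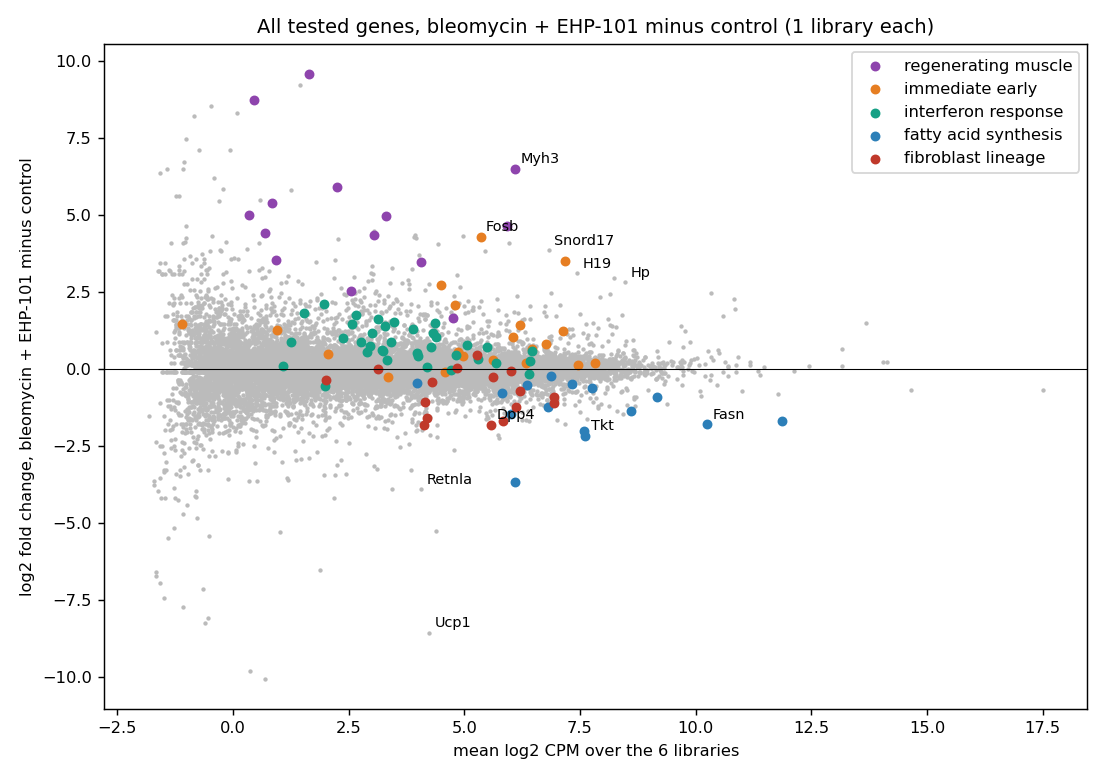
Log2 fold change of bleomycin with EHP-101 minus control (vertical axis, 1 library each) against the mean log2 CPM of the 6 libraries (horizontal axis) for the 17377 tested genes, with members of 5 gene lists coloured. Genes with 0 counts in 1 of the libraries have fitted values that depend on the prior count. Regenerating muscle genes and Snord17 lie at the top, and Retnla, Tkt and most fatty acid synthesis genes lie below 0.

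Genes of regenerating skeletal muscle had the highest median of all gene lists examined. All 14 tested members of this list were at least 2-fold higher with EHP-101, beside 5.46% of all tested genes. The median log2 fold change was 4.80, or 4.54 with the genes at 0 in control set to a floor of 3 counts there. Myh3 (chr11:67078300-67102291 in mm10, gene 17883), the embryonic myosin heavy chain, stood at 1.71 CPM in control, 104 in bleomycin, 156 in bleomycin with EHP-101 and 63.8, 25.8 and 59.4 in those given ajulemic acid. The control library was below each of the others, and the library with EHP-101 was the highest of the 6. The log2 fold change was 6.51 ± 0.86 (edgeR adjusted p = 0.432), a ratio of 91.4 with a 95% interval of 62.2 to 140.2 that covers counting error only. Myh8, the perinatal myosin, was at 4.53 CPM in control, 94.1 in bleomycin, 114 in bleomycin with EHP-101 and 49.7, 28.2 and 73.6 in those given ajulemic acid. Its order was the same, with control lowest and EHP-101 highest.

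The transcription factors that carry myoblasts into differentiation were near the limit of detection in control. Myog (chr1:134290004-134292548), which drives the last step, had 9 counts in control and 305 with EHP-101, and its level was 0.591 CPM in control, 11.9 in bleomycin, 18.6 in bleomycin with EHP-101 and 9.34, 5.84 and 12.2 in those given ajulemic acid. Pax7, the mark of satellite cells, the resident stem cells of muscle, had 1 count in control and 50 with EHP-101, a ratio of 46.4 (7.96 to 1870.4). Cdh15, the cadherin of satellite cells and myoblasts, had 2 and 136 counts, a ratio of 63.2 (17.2 to 527). Myf5, a determination factor of myoblasts, had 0 counts in control and 52 with EHP-101. Set against a floor of 3 counts in the control library, the ratio of Myf5 was 16.1, and its 95% counting interval began at 12.6. Mymk, the membrane protein that fuses myoblasts, had 0 and 94 counts. Its ratio was 29.1 on the same floor, with an interval that began at 23.2. Chrna1, the α subunit of the acetylcholine receptor, whose transcription spreads along the fibre when muscle is immature or denervated, stood at 0.788 against 16.2 CPM (log2 fold change 4.35 ± 0.66). The smallest differences in the list were those of Ncam1 (1.65), an adhesion molecule shared with nerve, and Myf6 (2.52), a factor of mature fibres. The list is drawn beside the other lists in the plot of members.

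The promoter of Chrna1 is shown because Myog and Myf5, named above, bind E-boxes, and this gene is among the members with the E-box CAGCTG in its 250 bases before the start. The letters are RefSeq sequence of the build GRCm38.p6 (chr2:73580339-73580588, minus strand), 5′ to 3′, with CAGCTG in capitals:
Chrna1: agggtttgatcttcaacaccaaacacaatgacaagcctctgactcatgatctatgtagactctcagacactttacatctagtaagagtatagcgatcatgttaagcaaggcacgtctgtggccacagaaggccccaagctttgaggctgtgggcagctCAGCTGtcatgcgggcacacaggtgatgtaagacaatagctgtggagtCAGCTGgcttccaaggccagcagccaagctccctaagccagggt
CAGCTG reads the same on both strands. It occurred in 2 of the 9 regenerating muscle genes with a promoter sequence (22.2%), Chrna1 and Chrng, and in 11 of 23 mature muscle genes (47.8%). The share was 14.9% of 13021 tested genes with a promoter. CAGCTG was not confined to muscle lists: it was in 5 of 16 immediate early promoters (31.2%) and 6 of 27 interferon promoters (22.2%). A match describes these letters and does not show that a factor bound there.

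Mature muscle genes were also above control, at a smaller distance. Of 28 tested members, 24 were at least 2-fold higher and 0 lower, beside 5.46% and 4.58% of all genes, and the median was 1.42. Their summed level was 10575 CPM in control, 29367 in bleomycin, 29176 with EHP-101 and 19826, 27879 and 12451 in those given ajulemic acid. The values varied by fibre type. Tnnt1 (chr7:4504663-4515975), the troponin T of slow fibres, stood at 1.38 CPM in control, 17.1 in bleomycin, 26.96 in bleomycin with EHP-101 and 13.8, 12.7 and 17.9 in those given ajulemic acid, a log2 fold change of 4.28 ± 0.40. Myh7, the slow myosin, was at 2.76 CPM in control, 3.08 in bleomycin, 17.02 in bleomycin with EHP-101 and 7.77, 7.33 and 4.29 in those given ajulemic acid (2.62 ± 0.54), and here the bleomycin library lay close to control. Myh2, the myosin of fast oxidative fibres, was at 61.8 against 474 CPM (2.94 ± 0.42), and Myh1, of an intermediate fast type, at 323 against 1794 CPM (2.47 ± 0.74). Myh4, the myosin of the fastest fibres, stood at 707 against 720.3 CPM with a log2 fold change of 0.03 ± 0.62. Pvalb, the calcium buffer of those fibres, was at 84.6 against 65.6 CPM (-0.37 ± 0.55). Des (chr1:75360344-75367716), the intermediate filament of muscle, was at 77.3 CPM in control, 366 in bleomycin, 417 in bleomycin with EHP-101 and 257, 314 and 276 in those given ajulemic acid (2.43 ± 0.25). Xirp1, a protein of injured and remodelling sarcomeres, was at 7.16 CPM in control, 48.5 in bleomycin, 45.01 in bleomycin with EHP-101 and 25.9, 27.6 and 25.3 in those given ajulemic acid (2.65 ± 0.23). In bulk skin, a different number of muscle cells and a different amount of RNA per muscle cell cannot be told apart, and the same holds for each cell type below.

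With DESeq2, 8 of the 14 regenerating genes and 10 of the 28 mature muscle genes had an adjusted p under 0.05. Of the 16029 genes given an adjusted p, DESeq2 called 0.586% higher. Without ajulemic acid library 3, edgeR called 6 higher in each list, beside 72 higher among all 17327 genes tested in that fit. Without library 1 it called no gene, and without library 2 it called 7 genes higher among all those tested. In the bleomycin library against the same control, the medians were 4.14 and 1.53. Those comparisons share the control library, so their values stand side by side only.

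**Figure D2:**
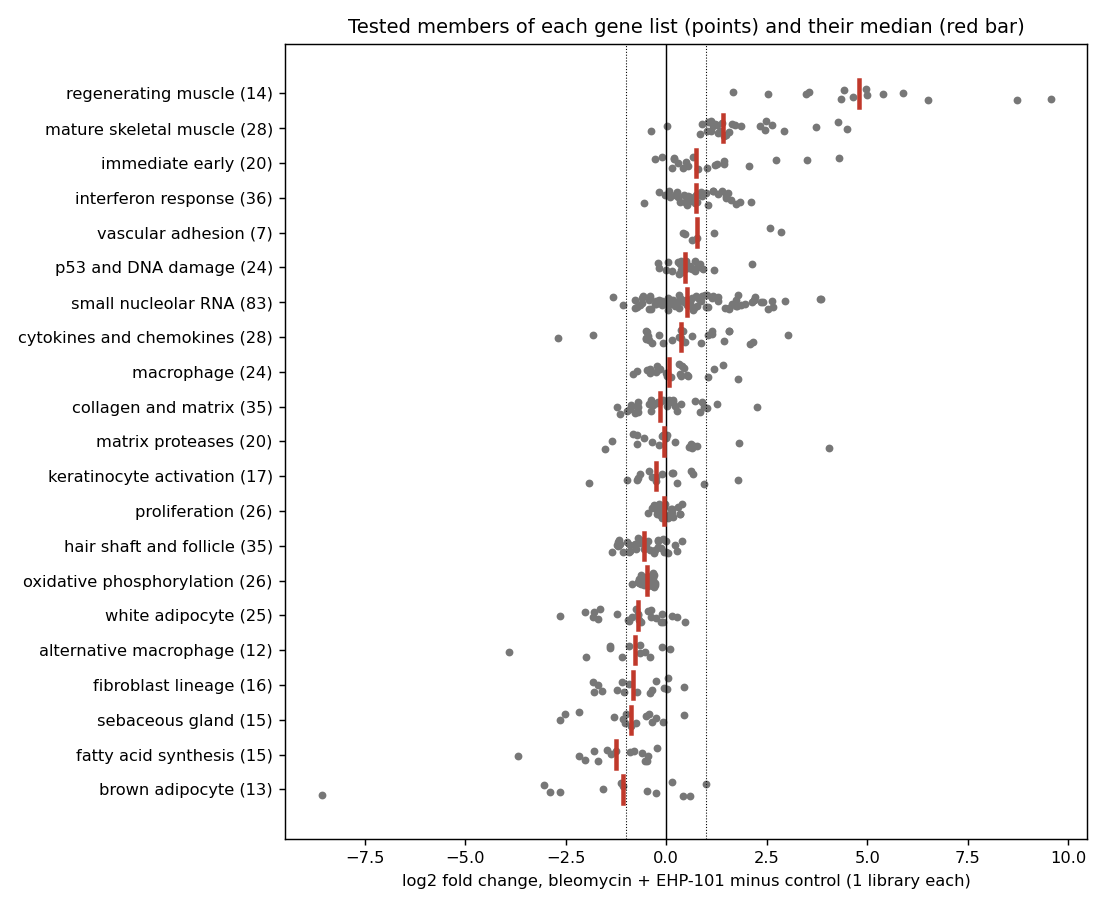
Each point is 1 tested gene, placed by its log2 fold change of bleomycin with EHP-101 minus control (horizontal axis, 1 library each) in 1 of 21 gene lists (rows, number of tested genes in brackets). Red bars are list medians and dotted lines mark 2-fold. All 14 regenerating muscle genes lie right of the 2-fold line, and all 15 fatty acid synthesis genes lie left of 0.

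H19 and Igf2, neighbouring imprinted genes that are active in fetal tissue and in regenerating muscle, were far above control. H19 (chr7:142575532-142578146), a long noncoding RNA, stood at 29.6 CPM in control, 259 in bleomycin, 257 in bleomycin with EHP-101 and 146, 201 and 143 in those given ajulemic acid, a log2 fold change of 3.12 ± 0.34. Igf2, an insulin-like growth factor, was at 2.82 CPM in control, 56.2 in bleomycin, 56.96 in bleomycin with EHP-101 and 20.4, 16.04 and 33.6 in those given ajulemic acid (4.33 ± 0.64). The levels with EHP-101 and with bleomycin differed by -0.01 and 0.02 on the log2 scale. Both genes were above control in each of the 5 treated libraries. Among the 16 genes of the growth factor axis, the median was 0.15. Igfbp6, a binding protein that prefers IGF2, was lower, at 50.8 against 11.04 CPM (-2.20 ± 0.45).

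Small noncoding RNAs of the nucleolus and of RNA processing lay above control in part. Of 83 tested small nucleolar and Cajal body RNAs, 28 were at least 2-fold higher and 2 lower, beside 5.46% and 4.58% of all genes. The list median was 0.53. The group was taken by its RefSeq class, after values were seen. Snord17 (chr2:144265982-144266202), a box C/D guide RNA of ribosomal RNA, had the smallest unadjusted p of all tested genes. It stood at 8.996 CPM in control, 172 in bleomycin, 129.6 in bleomycin with EHP-101 and 118, 139.9 and 109 in those given ajulemic acid. Its log2 fold change was 3.85 ± 0.28 (edgeR adjusted p = 0.414), and the 5 treated libraries all lay far above control. Snord15b was at 10.5 CPM in control, 44.7 in bleomycin, 48.6 in bleomycin with EHP-101 and 45.7, 46.01 and 51.7 in those given ajulemic acid (2.21 ± 0.23). The members also included Snora74a at 3.87 against 54.8 CPM and Scarna10 at 11.8 against 61.05 CPM. Rmrp and Rpph1, the RNA parts of RNase MRP and RNase P, were at 498 against 1934 CPM (1.96 ± 0.26) and 366 against 1786 CPM (2.29 ± 0.46). The median of the list was 1.87 under a stricter filter on low counts and 0.30 without a filter. Small nucleolar RNAs lie inside host genes and several have close copies, so their counts are uncertain where reads could be split.

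The 2 box C/D RNAs are printed to show what kind of RNA these values belong to. The letters are those of the GENCODE M21 transcripts on mm10, and capitals mark the C box near the 5′ end and the D box, CTGA, near the 3′ end. Snord17 lies at chr2:144265979-144266216, minus strand, and Snord15b at chr7:99479563-99479707, minus strand. The gene as the authors counted it is the same stretch for Snord15b and 221 of the 238 bases for Snord17, so the first 14 printed bases of Snord17, its C box included, and the last 3 lie outside the counted stretch.
Snord17: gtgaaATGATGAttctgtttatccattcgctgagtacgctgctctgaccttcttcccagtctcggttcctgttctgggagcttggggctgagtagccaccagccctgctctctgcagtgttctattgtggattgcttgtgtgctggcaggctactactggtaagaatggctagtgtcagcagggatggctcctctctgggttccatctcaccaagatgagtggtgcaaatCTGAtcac
Snord15b: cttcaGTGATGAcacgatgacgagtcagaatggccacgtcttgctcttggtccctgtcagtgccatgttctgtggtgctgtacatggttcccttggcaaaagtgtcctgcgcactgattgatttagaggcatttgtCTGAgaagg

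Immediate early genes, the transcription factors that cells switch on within minutes of a stimulus, were higher in the library with EHP-101. Of 20 tested members, 9 were at least 2-fold higher and 0 lower, beside 5.46% and 4.58% of all genes, and the median was 0.73. Fosb (chr7:19302696-19310045), a partner in the AP-1 factor, stood at 3.68 CPM in control, 19.8 in bleomycin, 72.5 in bleomycin with EHP-101 and 46.96, 40.7 and 60.4 in those given ajulemic acid, a log2 fold change of 4.30 ± 0.38 and a ratio of 19.7 (15.1 to 26.3). Fos, its close relative, was at 18.8 CPM in control, 83.8 in bleomycin, 213 in bleomycin with EHP-101 and 204, 129 and 224 in those given ajulemic acid (3.50 ± 0.47). Atf3, a stress-induced repressor, was at 6.04 CPM in control, 13.7 in bleomycin, 40.4 in bleomycin with EHP-101 and 25.01, 20.4 and 29.3 in those given ajulemic acid (2.74 ± 0.34). For these 3 genes the bleomycin library lay between control and the 4 drug-treated libraries. Egr1, a zinc finger factor, differed in that control and bleomycin had nearly the same level: 81.1 CPM in control, 81.4 in bleomycin, 189 in bleomycin with EHP-101 and 159.8, 121 and 208 in those given ajulemic acid. Dusp1, a phosphatase that ends MAP kinase signals, was at 34.02 against 91.5 CPM (1.43 ± 0.21), and Nr4a1, an orphan nuclear receptor, at 10.4 against 43.5 CPM (2.07 ± 0.59). Jund, another AP-1 member, and Klf2, a zinc finger factor of vessels, stood closer to control (0.19 and -0.27 on the log2 scale). DESeq2 called 4 of the members higher, Fos, Fosb, Atf3 and Dusp1, beside 0.586% of the genes it gave an adjusted p.

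**Figure D3:**
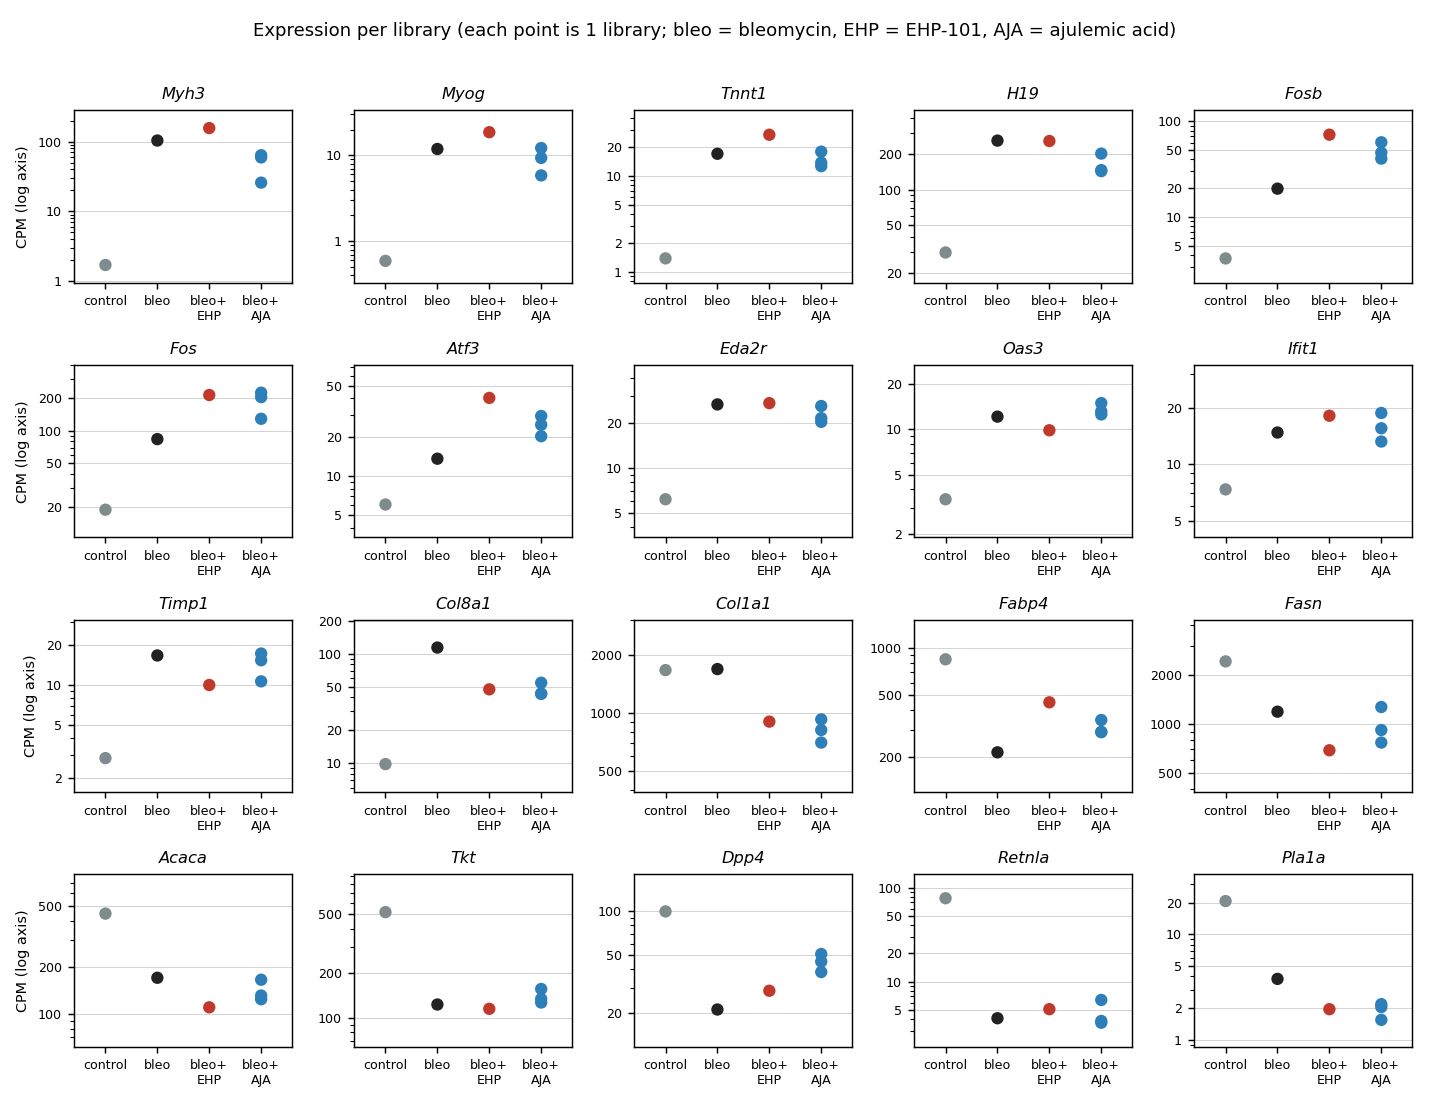
CPM on a log axis (vertical) for 20 genes in the 6 libraries, 1 point per library, grouped on the horizontal axis as control, bleomycin, bleomycin with EHP-101 and bleomycin with ajulemic acid (3 points). In the first 12 panels, from Myh3 to Col8a1, control is the lowest point. In the panels of Fabp4, Fasn, Acaca, Tkt, Dpp4, Retnla and Pla1a it is the highest.

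Interferon-stimulated genes were higher as a group by small amounts. 33 of 36 tested members had a log2 fold change above 0, beside 50.1% of all genes, and the median was 0.73. At least 2-fold higher were 12 and lower 0, beside 5.46% and 4.58% of all genes. Ifit3b (chr19:34607957-34613401), a gene of the Ifit family, stood at 1.25 CPM in control, 3.53 in bleomycin and 5.43 in bleomycin with EHP-101. The libraries given ajulemic acid had 3.61, 4.13 and 4.54 CPM, and the log2 fold change with EHP-101 was 2.11 ± 0.41. Oas3 (chr5:120753098-120777659), which makes the oligoadenylate that activates RNase L, was at 3.41 CPM in control, 12.2 in bleomycin, 9.88 in bleomycin with EHP-101 and 13.2, 15.01 and 12.6 in those given ajulemic acid (1.53 ± 0.30). Ifit1 was at 7.35 CPM in control, 14.8 in bleomycin, 18.1 in bleomycin with EHP-101 and 15.5, 18.7 and 13.2 in those given ajulemic acid (1.30 ± 0.34). Control was the lowest library for these 3 genes, and the treated libraries overlapped with one another. Mx1 and Mx2, antiviral GTPases, were at 3.55 against 10.9 CPM and 2.76 against 9.21 CPM. Cxcl10, a chemokine for T cells, was at 1.31 against 4.70 CPM (1.83 ± 0.42). Irf7, the factor that amplifies the response, was at 19.04 against 32.3 CPM (0.76 ± 0.23). Isg20, an exonuclease, was on the other side of control (-0.56). DESeq2 gave 0 of the 36 an adjusted p under 0.05. At an unadjusted edgeR p under 0.05, 15 were higher, beside 2.92% of all tested genes. Ifit3b has close copies in the genome, so its counts are uncertain.

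Promoters of 3 of these genes are shown because the interferon-stimulated response element holds the letters GAAA, any 2 bases, and GAAA again, which stand in capitals on whichever strand they lie. The sequences are the 250 bases before the start, from RefSeq on GRCm38.p6, in the direction of the gene. Their places are chr19:34607707-34607956, plus strand for Ifit3b, chr19:34640639-34640888, plus strand for Ifit1 and chr5:120777660-120777909, minus strand for Oas3.
Ifit3b: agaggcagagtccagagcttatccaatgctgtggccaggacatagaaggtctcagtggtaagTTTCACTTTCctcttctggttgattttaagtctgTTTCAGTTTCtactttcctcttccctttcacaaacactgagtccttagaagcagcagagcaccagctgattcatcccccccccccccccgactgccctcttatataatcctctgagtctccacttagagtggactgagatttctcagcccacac
Ifit1: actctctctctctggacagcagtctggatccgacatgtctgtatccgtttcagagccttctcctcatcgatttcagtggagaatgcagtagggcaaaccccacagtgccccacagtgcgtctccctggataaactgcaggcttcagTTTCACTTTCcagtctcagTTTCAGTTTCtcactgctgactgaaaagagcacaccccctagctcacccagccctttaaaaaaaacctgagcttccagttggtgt
Oas3: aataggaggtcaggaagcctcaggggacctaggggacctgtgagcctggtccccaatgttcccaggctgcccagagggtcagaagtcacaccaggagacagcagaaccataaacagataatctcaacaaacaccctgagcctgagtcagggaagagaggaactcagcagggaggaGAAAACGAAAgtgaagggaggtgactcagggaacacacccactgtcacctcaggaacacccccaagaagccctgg
The element, searched on both strands, occurred in 13 of 27 interferon genes with a promoter sequence (48.1%), beside 3.21% of the 13021 tested genes with one. It was in 0 of the 9 regenerating muscle promoters and 1 of the 16 immediate early promoters.

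Genes of leukocyte entry were above control, and cytokines and chemokines stood on both sides of it. Sele, the E-selectin of activated endothelium, stood at 1.58 CPM in control, 9.24 in bleomycin, 11.4 in bleomycin with EHP-101 and 8.79, 9.51 and 4.39 in those given ajulemic acid (2.85 ± 0.67). Selp, the P-selectin, was at 4.20 CPM in control, 14.9 in bleomycin, 25.4 in bleomycin with EHP-101 and 18.4, 8.995 and 11.3 in those given ajulemic acid (2.59 ± 0.58), with EHP-101 the highest library. Vcam1, a ligand for leukocyte integrins, was at 6.17 against 14.03 CPM (1.18 ± 0.31), and Icam1, another, at 16.4 against 27.6 CPM (0.76 ± 0.23). All 7 adhesion genes had a positive fold change and 3 were past 2-fold, beside 50.1% and 5.46% of all genes. The endothelial identity genes had a median of 0.40, with 1 of 17 at least 2-fold higher, a share near the 5.46% of all genes. That gene was Vwf, the von Willebrand factor of endothelial stores, at 30.7 against 67.3 CPM (1.13 ± 0.28). Among cytokines and chemokines, 9 of 28 were at least 2-fold higher and 2 lower, beside 5.46% and 4.58% of all genes. The list median of 0.37 became -0.062 under a stricter filter on low counts. Spp1, osteopontin, a cytokine of macrophages in scars, was at 4.33 CPM in control, 48.5 in bleomycin, 35.6 in bleomycin with EHP-101 and 29.1, 17.4 and 37.1 in those given ajulemic acid (3.04 ± 0.59). Ccl2, the chief monocyte chemokine, was at 3.22 CPM in control, 13.9 in bleomycin, 9.45 in bleomycin with EHP-101 and 10.6, 12.2 and 13.3 in those given ajulemic acid (1.55 ± 0.32), and Il1b at 1.97 against 5.79 CPM (1.55 ± 0.46). Ccl24, an eosinophil chemokine, was lower, at 7.81 against 2.20 CPM (-1.83 ± 0.68). Lcn2, an iron-trapping protein of neutrophils and stressed epithelium, was at 3.68 CPM in control, 3.72 in bleomycin, 16.8 in bleomycin with EHP-101 and 6.54, 11.7 and 8.92 in those given ajulemic acid (2.19 ± 0.49). The library with EHP-101 was the highest of the 6 for Lcn2, and control and bleomycin had nearly the same level. Hp (chr8:109575128-109579172), haptoglobin, which binds free haemoglobin, was at 90.5 CPM in control, 295 in bleomycin, 638 in bleomycin with EHP-101 and 430.2, 366 and 309 in those given ajulemic acid (2.82 ± 0.31). Hp is also a liver product and is among the 26 tested genes of the liver list, which had a median of -1.02. The source of the Hp transcripts was not tested.

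Macrophage genes stood on both sides of control. The general macrophage list had a median of 0.06. Of its 24 genes, 4 were at least 2-fold higher and 0 lower, beside 5.46% and 4.58% of all genes. Msr1, a scavenger receptor, was at 5.52 CPM in control, 16.2 in bleomycin, 19.03 in bleomycin with EHP-101 and 19.6, 21.8 and 15.5 in those given ajulemic acid (1.79 ± 0.34), and Trem2, a lipid receptor of macrophages in damaged tissue, at 2.43 CPM in control, 11.9 in bleomycin, 6.53 in bleomycin with EHP-101 and 4.70, 3.90 and 6.33 in those given ajulemic acid (1.42 ± 0.46). Genes of the alternatively activated, tissue-resident state were lower, with a median of -0.79. By at least 2-fold, 5 of 12 were lower, beside 4.58% of all genes, and 0 higher. Retnla (chr16:48842552-48844461), a protein secreted by macrophages and adipose tissue under type 2 cytokines, stood at 77.2 CPM in control, 4.10 in bleomycin, 5.12 in bleomycin with EHP-101 and 3.68, 6.42 and 3.84 in those given ajulemic acid. All 5 treated libraries lay far below control, at a log2 fold change of -3.91 ± 0.51 for EHP-101 and a ratio of control to EHP-101 of 15.1. Folr2, a folate receptor of resident macrophages, was at 29.8 against 11.2 CPM (-1.41 ± 0.38), and Timd4, a phosphatidylserine receptor, at 3.94 against 0.976 CPM (-2.01 ± 0.89). Arg1, arginase, stood nearer to control at 28.2 against 21.2 CPM (-0.41 ± 0.29).

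DNA damage genes were slightly higher. 21 of 24 p53 targets had a positive fold change, beside 50.1% of all genes, and the median was 0.48. At least 2-fold higher were 2 and lower 0, beside 5.46% and 4.58% of all genes. Eda2r (chrX:97333841-97377209), a receptor of the TNF family and a p53 target, stood at 6.17 CPM in control, 26.6 in bleomycin, 27.1 in bleomycin with EHP-101 and 20.3, 25.9 and 21.5 in those given ajulemic acid, a log2 fold change of 2.13 ± 0.29. The treated libraries lay close together, and control was far below them. Cdkn1a, the p21 inhibitor of the cell cycle, was at 67.97 CPM in control, 126 in bleomycin, 122 in bleomycin with EHP-101 and 150.2, 86.3 and 141 in those given ajulemic acid (0.85 ± 0.43). Trp53inp1, a p53 cofactor, was at 134 against 229 CPM (0.77 ± 0.26). Proliferation genes had a median of -0.06, with 0 of 26 past 2-fold in either direction.

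The matrix genes divided. The collagens and their matrix partners had a median of -0.16, with 3 of 35 at least 2-fold higher and 2 lower, beside 5.46% and 4.58% of all genes. Col1a1 stood at 1663 CPM in control, 1683 in bleomycin, 902 in bleomycin with EHP-101 and 817, 926 and 704 in those given ajulemic acid, and Col3a1, its partner in dermal fibrils, at 2477 CPM in control, 3089 in bleomycin, 1517 in bleomycin with EHP-101 and 1691, 2029 and 1499 in those given ajulemic acid. Both were lower with EHP-101 than in control (log2 fold changes -0.88 ± 0.29 and -0.71 ± 0.32), and bleomycin and control had nearly the same level of Col1a1. Fbn1, the fibrillin of elastic microfibrils, was at 545 CPM in control, 422 in bleomycin, 244 in bleomycin with EHP-101 and 344, 350.2 and 295 in those given ajulemic acid (-1.16 ± 0.24). Postn, a matricellular protein of wounds, was at 642 against 398 CPM (-0.69 ± 0.34). Col8a1 (chr16:57624256-57754737), a short-chain collagen of vessels and injured tissue, was the member farthest above control, at 9.85 CPM in control, 114 in bleomycin, 47.3 in bleomycin with EHP-101 and 54.4, 43.03 and 43.4 in those given ajulemic acid (2.26 ± 0.27). The levels with EHP-101 and with ajulemic acid lay between control and bleomycin. Ccn1, a matricellular target of mechanical signals, was at 21.3 against 43.2 CPM (1.02 ± 0.22), and Bgn, biglycan, at 70.5 against 115 CPM (0.71 ± 0.26). C1qtnf3, a secreted protein of the C1q and TNF family, was at 9.13 CPM in control, 79.8 in bleomycin, 37.1 in bleomycin with EHP-101 and 31.1, 32.8 and 29.5 in those given ajulemic acid (2.02 ± 0.22).

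Enzymes and regulators of the matrix showed the same division. Lox, the enzyme that begins collagen cross-linking, was at 20.8 CPM in control, 95.8 in bleomycin, 34.8 in bleomycin with EHP-101 and 44.4, 43.5 and 47.2 in those given ajulemic acid (0.75 ± 0.20), while its relative Loxl1 was at 28.2 against 16.8 CPM (-0.75 ± 0.38). The 19 cross-linking and collagen-processing genes had a median of 0.06 and none past 2-fold. Timp1, an inhibitor of metalloproteinases, was at 2.82 CPM in control, 16.7 in bleomycin, 10.002 in bleomycin with EHP-101 and 17.2, 10.7 and 15.4 in those given ajulemic acid (1.82 ± 0.44). Mmp11, stromelysin 3, was lower, at 11.4 CPM in control, 23.2 in bleomycin, 3.96 in bleomycin with EHP-101 and 4.16, 5.39 and 3.84 in those given ajulemic acid (-1.53 ± 0.37). Timp1 was lowest in control, whereas Mmp11 was lower with EHP-101 and with ajulemic acid than in control and bleomycin. Of the 20 TGF-β ligands, receptors and feedback genes none was past 2-fold, and the ligand Tgfb1 was at 11.2 against 13.9 CPM (0.31 ± 0.28). Acta2, an actin of vessel walls and myofibroblasts, was at 80.5 CPM in control, 85.7 in bleomycin, 102 in bleomycin with EHP-101 and 95.1, 88.6 and 108 in those given ajulemic acid (0.34 ± 0.22). Of 13 contractile genes, 3 were at least 2-fold higher, beside 5.46% of all genes. These 3, Des, Tpm2 and Synpo2, are also expressed in striated muscle.

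Markers of fibroblast lineages were lower. 7 of 16 were at least 2-fold below control and 0 above, with a median of -0.83, beside 4.58% of all genes lower. Dpp4 (chr2:62330073-62412231), a peptidase on fibroblasts of the reticular and fascial layers, stood at 99.9 CPM in control, 21.2 in bleomycin, 28.5 in bleomycin with EHP-101 and 38.4, 45.3 and 50.99 in those given ajulemic acid (-1.81 ± 0.27). Gpc3, a proteoglycan of adventitial fibroblasts, was at 43.3 CPM in control, 10.3 in bleomycin, 14.3 in bleomycin with EHP-101 and 14.2, 12.7 and 15.1 in those given ajulemic acid (-1.60 ± 0.25). Mfap5, a microfibril protein, was at 28.04 CPM in control, 22.8 in bleomycin, 7.99 in bleomycin with EHP-101 and 17.4, 15.8 and 11.4 in those given ajulemic acid (-1.81 ± 0.38). Control was the highest library for all 3, and Mfap5 was lowest with EHP-101. Pdgfra, the pan-fibroblast receptor, was at 118 against 50.3 CPM (-1.23 ± 0.58), and Pi16, of the universal fibroblast state, at 105 against 32.4 CPM (-1.70 ± 1.07). Pdgfrb, which also marks pericytes, was nearer to control (-0.25 ± 0.23). Sfrp2, a Wnt modulator secreted by dermal fibroblasts, stood at 25.8 CPM in control, 11.6 in bleomycin, 2.68 in bleomycin with EHP-101 and 3.88, 5.44 and 2.19 in those given ajulemic acid (-3.26 ± 0.68), and Wnt2, a canonical ligand, at 5.78 against 0.915 CPM (-2.65 ± 0.53). Pla1a (chr16:38396117-38433145), a phospholipase that makes lysophosphatidylserine, was at 20.8 CPM in control, 3.78 in bleomycin, 1.95 in bleomycin with EHP-101 and 2.04, 2.18 and 1.55 in those given ajulemic acid, and Spon2, a matrix protein of the spondin family, at 20.8 CPM in control, 4.87 in bleomycin, 3.05 in bleomycin with EHP-101 and 4.09, 4.01 and 6.23 in those given ajulemic acid. For both genes all treated libraries were below control. DESeq2 called Dpp4, Gpc3 and Mfap5 lower, beside 0.175% of the genes it gave an adjusted p.

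**Figure D4:**
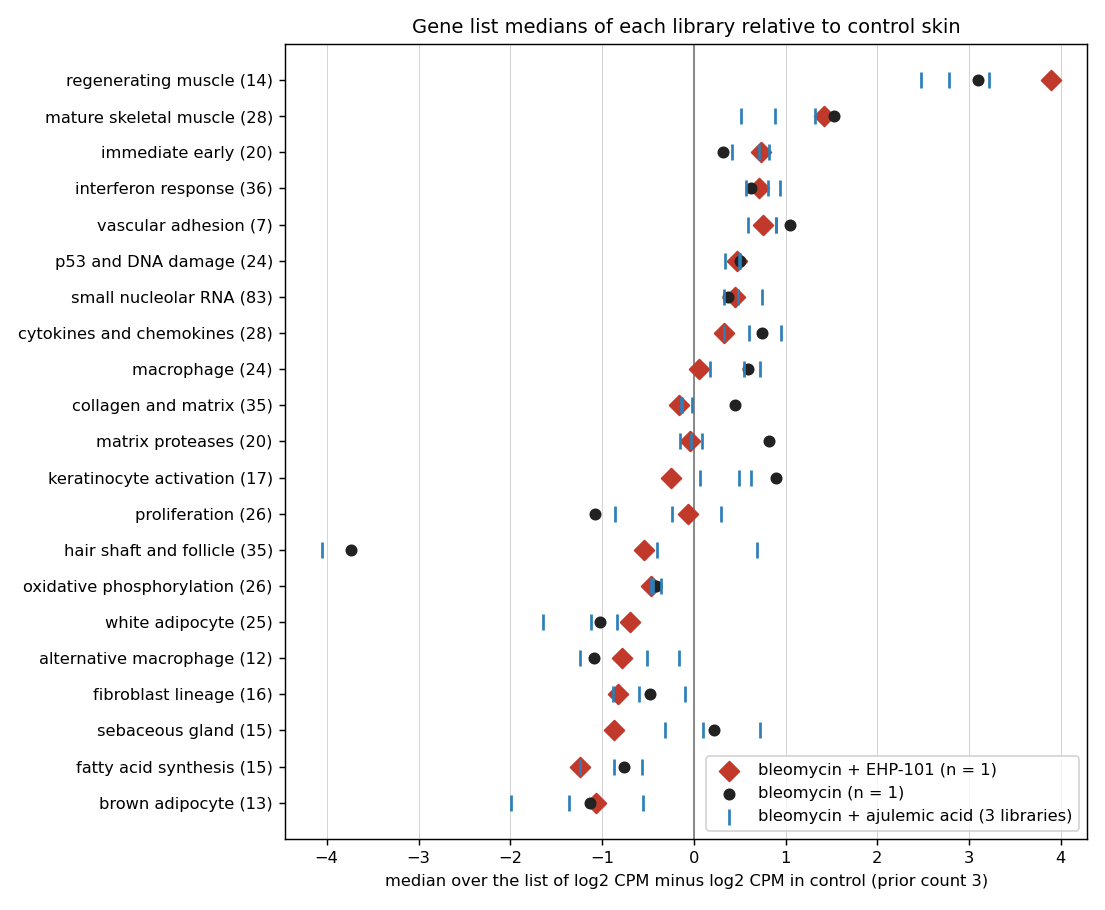
Median over each list (rows, number of tested genes in brackets) of the log2 CPM of a library minus that of the control library (horizontal axis, prior count 3). The red diamond is bleomycin with EHP-101, the black circle bleomycin, and blue ticks are the 3 ajulemic acid libraries. The lists of muscle, interferon and p53 genes lie right of 0 in all treated libraries, and fatty acid synthesis left of 0.

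Genes of fatty acid synthesis lay below control throughout their list. All 15 tested members of this list, which was drawn up after values were seen, had a negative fold change, beside 49.9% of all genes. At least 2-fold lower were 8, beside 4.58% of all genes, and the median was -1.24. Acaca (chr11:84195438-84401651), acetyl-CoA carboxylase, which commits carbon to fatty acids, stood at 444 CPM in control, 171 in bleomycin, 109.8 in bleomycin with EHP-101 and 124, 166 and 131 in those given ajulemic acid (-2.02 ± 0.29). Fasn (chr11:120805958-120824547), fatty acid synthase, was at 2415 CPM in control, 1191 in bleomycin, 692 in bleomycin with EHP-101 and 920.1, 1272 and 772 in those given ajulemic acid (-1.80 ± 0.42). Tkt (chr14:30549149-30574722), transketolase of the pentose phosphate route that supplies NADPH, was at 517 CPM in control, 123 in bleomycin, 115 in bleomycin with EHP-101 and 127, 135 and 157 in those given ajulemic acid (-2.16 ± 0.25). In each case control was the highest and EHP-101 the lowest of the 6 libraries. Acly, which makes cytosolic acetyl-CoA, was at 683 against 263 CPM (-1.38 ± 0.29), and Slc25a1, which exports the citrate for it, at 114 against 40.98 CPM (-1.48 ± 0.46). Scd1, the desaturase, was at 7127 against 2217 CPM (-1.68 ± 0.75). Thrsp, a cofactor of lipogenic transcription, was at 277 CPM in control, 37.6 in bleomycin, 21.6 in bleomycin with EHP-101 and 21.1, 44.4 and 8.57 in those given ajulemic acid (-3.68 ± 1.27). Srebf1, the transcription factor of the route, was nearer to control, at 129 against 110.1 CPM (-0.22 ± 0.20). DESeq2 called Acly, Acaca, Fasn and Tkt lower, beside 0.175% of the genes it gave an adjusted p.

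White adipocyte genes were lower in part. 7 of 25 were at least 2-fold below control, beside 4.58% of all genes, 0 were above, and the median was -0.69. Fabp4, the fatty acid carrier of adipocytes, stood at 847 CPM in control, 214 in bleomycin, 449 in bleomycin with EHP-101 and 289.8, 345 and 289 in those given ajulemic acid (-0.92 ± 0.25). The value with EHP-101 lay between control and each of the other treated libraries. Adipoq, adiponectin, was at 264 CPM in control, 86.6 in bleomycin, 173 in bleomycin with EHP-101 and 122, 136 and 76.1 in those given ajulemic acid (-0.61 ± 0.44), with the same order. Pparg, the master regulator of fat and a named target of the active compound of EHP-101, was at 46.5 CPM in control, 19.2 in bleomycin, 24.2 in bleomycin with EHP-101 and 17.5, 26.01 and 14.1 in those given ajulemic acid (-0.94 ± 0.46). Lep, leptin, was at 65.9 CPM in control, 21.04 in bleomycin, 62.9 in bleomycin with EHP-101 and 28.5, 23.7 and 20.7 in those given ajulemic acid, and its log2 fold change of -0.07 ± 0.29 became 0.06 when libraries were scaled by totals alone. Plin4, a lipid droplet protein, was at 305 against 367 CPM (0.27 ± 0.35). Agpat2, an acyltransferase of triglyceride synthesis, was at 50.2 against 14.3 CPM (-1.81 ± 0.31), and Acaa2, a thiolase of mitochondrial fatty acid breakdown, at 207 against 93.3 CPM (-1.15 ± 0.19). Brown fat genes had a median of -1.08, with 7 of 13 at least 2-fold lower, beside 4.58% of all genes. Otop1 and Kcnk3, ion channels of brown fat, were at 7.03 against 0.854 CPM and 11.4 against 1.52 CPM. Ucp1 was over 1 CPM in control and in ajulemic acid library 2 and under it in the other libraries, so this brown fat marker moved with the lipid values between control and EHP-101, and its part in them was not tested. The 26 nuclear genes of oxidative phosphorylation all had a negative fold change, beside 49.9% of all genes, with a median of -0.47 and 0 past 2-fold.

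Sebaceous and hair genes lay below control in part. 7 of 15 sebaceous genes were at least 2-fold lower, beside 4.58% of all genes, and 0 higher. This list shares members with the lipid lists above, so their counts are not separate. Tkt is also a fatty acid synthesis gene, and Cidea, at 59.8 against 9.64 CPM (-2.63 ± 0.87), is also a brown fat gene. Acaca and Fasn are in the lists of both fatty acid synthesis and white adipocytes. Their median was -0.88, while that of bleomycin against the same control was 0.22. Awat2, which esterifies wax in sebum, was at 11.2 CPM in control, 13.98 in bleomycin, 4.51 in bleomycin with EHP-101 and 10.6, 23.5 and 9.17 in those given ajulemic acid (-1.31 ± 0.77), and EHP-101 had the lowest level of the 6. The hair shaft list had a median of -0.54, with 8 of 35 at least 2-fold lower, beside 4.58% of all genes. Its summed level was 13108 CPM in control, 9115 with EHP-101, 1114 in bleomycin and 11059, 894 and 24182 in those given ajulemic acid. Hair genes of the library with EHP-101 thus stood within the range of the ajulemic acid libraries, which spread widely. Krtap8-1, a matrix protein of hair keratin, was at 643 CPM in control, 25.01 in bleomycin, 278 in bleomycin with EHP-101 and 461, 56.95 and 1019.7 in those given ajulemic acid (-1.21 ± 1.89).

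Keratinocyte genes were close to control. Over the activation list the median was -0.25. Of its 17 genes, 1 was at least 2-fold higher and 1 lower, beside 5.46% and 4.58% of all genes. Krt16, a keratin of wounded epidermis, stood at 21.3 CPM in control, 99.2 in bleomycin, 17.9 in bleomycin with EHP-101 and 31.2, 33.002 and 25.4 in those given ajulemic acid (-0.25 ± 0.27). Rptn, repetin, of the cornified envelope, was at 33.03 CPM in control, 249 in bleomycin, 15.9 in bleomycin with EHP-101 and 25.6, 44.98 and 35.04 in those given ajulemic acid (-1.05 ± 0.42). The bleomycin library was the highest for both genes, and EHP-101 was the lowest. The basal and differentiated lists had medians of 0.23 and -0.07.

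Clock and glucocorticoid-responsive genes had medians above control, by small amounts. Per2, a repressor of the clock, stood at 6.70 CPM in control, 8.27 in bleomycin, 20.4 in bleomycin with EHP-101 and 25.6, 24.8 and 19.6 in those given ajulemic acid (1.61 ± 0.31). Dbp, an output factor of the clock, was at 10.3 against 18.8 CPM (0.87 ± 0.64), and Arntl, the activator that peaks opposite to Per2, was lower, at 34.5 against 21.4 CPM (-0.69 ± 0.23). The 17 clock genes had a median of 0.55, with 1 at least 2-fold higher and 0 lower, a share near the 5.46% of all genes. Zbtb16, a zinc finger factor induced by glucocorticoids, was at 34.9 CPM in control, 219 in bleomycin, 107 in bleomycin with EHP-101 and 72.2, 53.2 and 25.9 in those given ajulemic acid (1.62 ± 0.72), and Fkbp5, a chaperone of the glucocorticoid receptor, at 25.2 against 54.04 CPM (1.10 ± 0.57). Of 15 glucocorticoid-responsive genes, 5 were at least 2-fold higher, beside 5.46% of all genes. Among these, Dusp1 is also in the immediate early list and Lcn2 in the neutrophil list, so the lists are not separate. The labels do not give the time of day of sampling.

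Nerve, immune and cannabinoid genes complete the comparison. Of 16 Schwann cell genes 4 were at least 2-fold higher, beside 5.46% of all genes. Among them was Mag, a myelin-associated glycoprotein, at 0.722 against 2.68 CPM (1.88 ± 0.48). T and NK cell genes had a median of 0.15, antigen-presenting cell genes 0.22 and mast cell genes -0.06. B and plasma cell genes had a median of -1.78 over 6 genes, the most counted in control being Fcer2a with 26 counts. Cnr1 and Cnr2, the cannabinoid receptors, were at 3.94 CPM in control, 5.07 in bleomycin, 6.71 in bleomycin with EHP-101 and 4.02, 3.27 and 3.74 in those given ajulemic acid for Cnr1 and 2.23 CPM in control, 4.30 in bleomycin, 3.05 in bleomycin with EHP-101 and 4.77, 6.65 and 3.34 in those given ajulemic acid for Cnr2. Their log2 fold changes were 0.77 ± 0.36 and 0.45 ± 0.59. The 13 cannabinoid genes had a median of 0.07. The 21 PPAR targets had one of -0.16, with 2 at least 2-fold lower, beside 4.58% of all genes. Wnt pathway, complement and lymphatic vessel genes had medians of -0.13, -0.22 and 0.56, and neutrophil, senescence and melanocyte genes 0.70, 0.45 and -0.15. For replication-dependent histones and ribosomal proteins they were -0.52 and -0.22, for heat shock and endoplasmic reticulum stress 0.30 and 0.10, and for 4 erythroid genes -0.98. Hypoxia and NRF2 genes had medians of 0.05 and -0.33. The cannabinoid, PPAR, hypoxia and NRF2 lists in bleomycin against control had medians of 0.19, -0.14, 0.29 and -0.19.

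Set against the bleomycin library instead of control, the library with EHP-101 had 914 genes at least 2-fold higher (5.26%) and 698 lower (4.02%), and edgeR called 0 in either direction. Unadjusted p-values under 0.05 were found for 100 genes above (0.575%) and 229 below (1.32%), and DESeq2 made 2 calls above and 8 below. Bleomycin against control had 1346 genes at least 2-fold higher (7.75%) and 1234 lower (7.1%), also with 0 edgeR calls. Here 817 lay above (4.7%) and 365 below (2.1%) at unadjusted p-values under 0.05, and DESeq2 made 128 calls above and 37 below. These counts share libraries with the comparison above and are no separate evidence for it. For a choice of the groups described above, the medians of EHP-101 minus bleomycin were 0.51 for regenerating muscle, -0.06 for mature muscle, 0.11 for interferon genes and -0.11 for p53 targets. They were -0.47 for fatty acid synthesis, -0.07 for fibroblast markers, -0.67 for matrix genes and -1.34 for keratinocyte activation. For immediate early and adhesion genes they were 0.49 and 0.18, and for sebaceous, brown fat and alternatively activated macrophage genes -0.77, 0.13 and 0.10.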

How the data were processed

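Total RNA of mouse skin was made into stranded, ribosomal RNA-depleted libraries from 300 ng each and read as 50 bp single ends, per the labels' protocols. The submitters' processing notes name DESeq2 1.20.0, featureCounts 1.6.1, HISAT2 2.1.0, Trimmomatic 0.36 and mm10. The values are raw featureCounts counts for each gene, deposited by the authors, per the series text. How featureCounts treated strand and multiply mapped reads is not given in the sources used here. Close copies, overlapping genes and antisense pairs therefore have uncertain counts. Groups came from the sample labels. The table merged with another series held 6 further libraries, which were not used, and 0 of the counts of the 6 libraries differed between the tables. Symbols came from RefSeq GRCm38.p6 by gene number (25275 of 27179 matched, 1904 did not).

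Counts were tested as deposited with edgeR 4.0.16 (R 4.3.3): filterByExpr with a minimum count of 10, TMM scaling, and robust two-sided quasi-likelihood F-tests in 1 fit of all 6 libraries and 4 groups, with Benjamini-Hochberg adjustment over 17377 genes. The 2 residual degrees of freedom came from the ajulemic acid group, whose pairs of libraries gave a chi-square over its degrees of freedom from 34.96 to 124, so none was a duplicate. The common biological coefficient of variation was 0.267. DESeq2 1.42.0 and limma 3.58.1 were alternatives. The fit was tested on simulated data. Intervals given for ratios are 95% exact binomial intervals from the 2 counts. Library medians are of log2 CPM computed with prior count 3.

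The comparison, 51 gene lists and 3 added ones (fatty acid synthesis, lung and small nucleolar RNA) were chosen with earlier results of these data known. Named genes were in either direction the 12 with the smallest unadjusted p whose mean log2 CPM reached 2, the 3 of smallest p in lists with a median of at least 0.5 in size, and a panel. Of these some are not described. Other genes named were chosen after their values were seen. Promoter sequences covered 250 bases before the start.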

Additional observations from a re-analysis of the deposited data

How the results depend on the processing

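No paired analysis was possible because control, bleomycin and bleomycin with EHP-101 have 1 library each, which share only the number 3, and a block on the number leaves no residual degrees of freedom. Of 188 named genes, 3 changes of sign occurred, all near 0: Lep at 0.062 with scaling by library totals, and Myh4 at -0.00475 without the bleomycin library and, over the fits without 1 ajulemic acid library, between -0.0049 and 0.028. The median of the lung genes was 0.062 under the stricter filter, which drops members that are low with EHP-101. Calls in edgeR ranged over the fits without 1 ajulemic acid library from 0 to 72 higher and 0 to 19 lower for EHP-101 against control, and from 0 to 141 and 0 to 38 for bleomycin against control. Without replicate 2 they were 7 and 2, and 6 and 2. DESeq2 called 94 and 28 for EHP-101, 128 and 37 for bleomycin, and 2 and 8 for EHP-101 against bleomycin. The cause was not tested.

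Counts past 2-fold were 2449 higher and 2037 lower without a filter and 371 and 286 with a stricter one, since the number of genes tested changed. Without a filter the medians were -0.80 for B and plasma cells, -0.49 for erythroid and 0.30 for small nucleolar RNA. Under the stricter filter they were -0.062 for cytokines, 0.16 for senescence, 0.37 for the IGF axis, -1.45 for erythroid and 1.87 for small nucleolar RNA. With library totals alone, which moved all genes by 0.13, they were -0.029 for collagen and matrix, 0.19 for cross-linking, 0.086 for proteases, -0.028 for PPAR targets, 0.36 for basal keratinocytes, 0.61 for p53, 0.56 for Schwann cells, 0.67 for glucocorticoid, 0.18 for hypoxia, 0.23 for endoplasmic reticulum stress, -0.34 for oxidative phosphorylation and -0.094 for ribosomal proteins. Glucocorticoid genes were at 0.51 without the bleomycin library. Over the fits without 1 ajulemic acid library the medians ranged from -1.78 to -1.09 for B and plasma cells and from 0.51 to 0.55 for glucocorticoid genes, the lower size being that without replicate 2. With limma they were -1.06 for B and plasma cells and 3.89 for regenerating muscle. Depth limits genes under about 10 counts, where the counting intervals are wide.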

Other observations

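Genes outside the lists also stood far from control. Pgr, the progesterone receptor, was at 9.85 CPM in control, 0.513 in bleomycin, 0.244 in bleomycin with EHP-101 and 0.136, 0.401 and 0.449 in those given ajulemic acid. The control library was the only one above 1 CPM, and the log2 fold change for EHP-101 was -5.29 ± 0.81 (edgeR adjusted p = 0.445). Tceal7, a small nuclear protein expressed in muscle, was at 0.394 CPM in control, 9.36 in bleomycin, 7.44 in bleomycin with EHP-101 and 3.75, 3.27 and 3.79 in those given ajulemic acid, and all treated libraries were above control. Arpp21, a cyclic AMP-regulated phosphoprotein, was at 1.18 CPM in control, 12.96 in bleomycin, 11.95 in bleomycin with EHP-101 and 6.47, 7.28 and 7.33 in those given ajulemic acid. Anxa3, an annexin, was lower, at 36.1 CPM in control, 13.1 in bleomycin, 10.7 in bleomycin with EHP-101 and 13.6, 11.9 and 13.7 in those given ajulemic acid, and Acot11, a thioesterase of brown fat, at 26.9 CPM in control, 5.07 in bleomycin, 6.89 in bleomycin with EHP-101 and 5.93, 8.19 and 6.43 in those given ajulemic acid. Rny3, a Y RNA, was at 0.985 CPM in control, 10.6 in bleomycin, 18.97 in bleomycin with EHP-101 and 20.2, 13.1 and 28.3 in those given ajulemic acid.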
